A study of Homo sapiens with 4 samples.

Results

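The microRNA described here is miR-210, read by a single feature of the array, MIMAT0000267 in the deposited table of 856 features. MIMAT numbers are miRBase accessions of mature microRNAs. The table carries no names, and the name miR-210 for this accession is miRBase's. It was picked out by accession, with earlier results of these data known. Levels were measured in the established lines KYSE-520, KYSE-450, KYSE-960 and KYSE-890, all of human oesophageal squamous cell carcinoma, with 1 array per line. All 4 were kept in Ham's F-12/RPMI 1640 with 5% foetal bovine serum at 37 °C in humidified air with 5% CO2, and 500 ng of Hy5-labelled total RNA went onto each chip. Hy5 is a fluorescent dye. The labels name no treatment and no oxygen level, so the comparison is of miR-210 between lines as cultured. The oxygen that reached the cells is not known. Since each line had 1 array, no difference could be set against a spread between replicates, and p-values are not reported.

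miR-210 is known as the microRNA most regularly induced by low oxygen. The transcription factor HIF-1, whose alpha subunit is degraded while oxygen is plentiful, binds upstream of its gene and raises its transcription. Among its known targets are the messenger RNAs of ISCU, a scaffold for building iron-sulphur clusters used in mitochondrial respiration, and of EFNA3, a ligand in the formation of blood vessels.

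In RefSeq, the gene MIR210 lies on the minus strand of chromosome 11 at chr11:568089-568198 (GRCh38.p14), inside the span of the long non-coding RNA gene MIR210HG at chr11:565657-568457. The sequences below are RefSeq's and are shown because the array has to tell the mature strand from all other microRNAs. The older name miR-210 is that of the 3p strand, at chr11:568112-568133. Capitals mark the seed, bases 2 to 8, in both mature strands, and the 3p strand in the hairpin, where it takes up positions 66 to 87 of 110.
hsa-miR-210-3p: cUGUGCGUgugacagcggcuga
hsa-miR-210-5p: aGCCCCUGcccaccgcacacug
MIR210 hairpin: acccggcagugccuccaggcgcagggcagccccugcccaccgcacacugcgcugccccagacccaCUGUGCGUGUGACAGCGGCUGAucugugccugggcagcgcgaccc

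miR-210-3p shared its full seed with no other human microRNA in the RefSeq table. Among 2370 distinct mature microRNAs there, 0 others had the same bases 2 to 8, and 1 other had the same bases 2 to 7. The longest run of bases that miR-210-3p had in common with any other was 8 of its 22, which occurred in 4 microRNAs. Of its 22 bases, 14 were G or C (63.6%). The letters of the array's own probe were not used here, and how the probe binds was not tested.

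miR-210 was above background in 3 of the 4 lines, with a weak signal in each of the 3. Its deposited intensity, in scanner units, was 335 in KYSE-520 and 206 in KYSE-450, with 152 in KYSE-960 and 106.5 in KYSE-890. A feature counted as above background when it exceeded the median of its array by 3 SD, the SD being estimated from the dimmer features alone. These thresholds lay at 150.0 in KYSE-520 and 138 in KYSE-450, with 130.0 in KYSE-960 and 128.5 in KYSE-890. miR-210 therefore passed clearly in KYSE-520, by 2.23-fold, less far in KYSE-450, by 1.49-fold, and narrowly in KYSE-960, by 1.17-fold. In KYSE-890 it was not above background, at 1.63 SD over the array median. With a threshold at 2 SD the calls were the same, and at 5 SD miR-210 was no longer above background in KYSE-960.

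**Figure D1:**
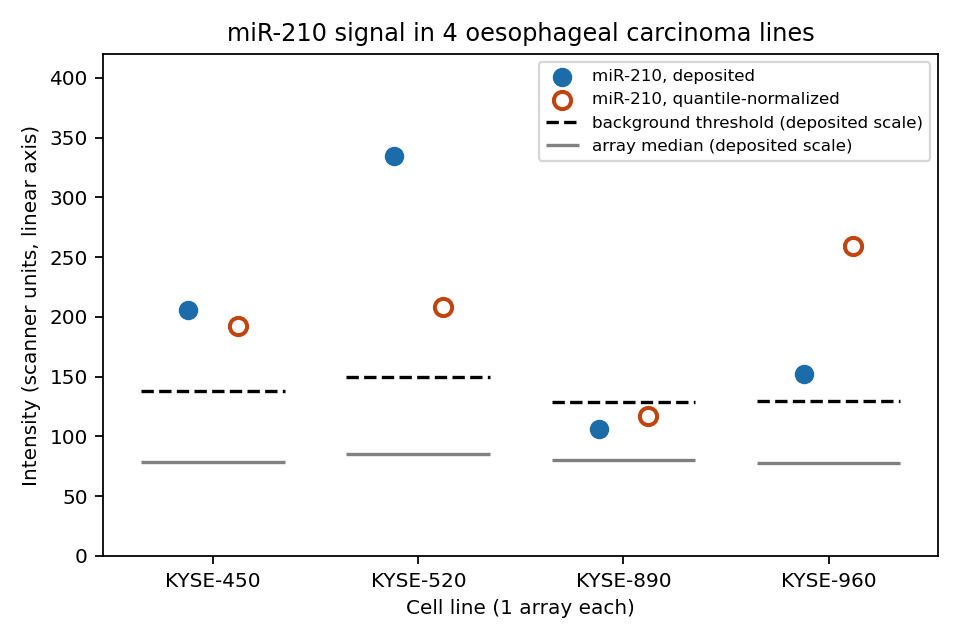
miR-210 intensity in scanner units on a linear axis, with 1 array per line and no error bars; filled points are deposited values, open points quantile-normalized values, dashed lines each array's background threshold and grey lines its median. The deposited signal was highest in KYSE-520 (335) and under the threshold in KYSE-890 (106.5), and normalization put KYSE-960 (259) above KYSE-520 (209).

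The weak signal can also be read against each array's own background. miR-210 stood at 3.92 times the array median in KYSE-520 and 2.62 times in KYSE-450, with 1.96 times in KYSE-960 and 1.32 times in KYSE-890. These ratios do not change when a whole array is multiplied by a factor, and they put the lines in the same order as the deposited intensities. The array medians themselves differed little, between 77.5 and 85.5. In intensity units over the median, miR-210 had 249.5 in KYSE-520 and 127 in KYSE-450, with 74.5 in KYSE-960 and 26.0 in KYSE-890.

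miR-210 was in the dim part of the features above background in KYSE-520, KYSE-450 and KYSE-960, and outside them in KYSE-890. By brightness it ranked 94 of 856 in KYSE-450, where 117 features were above background, and 89 in KYSE-520, where 145 were. It ranked 76 in KYSE-960, among 94 above background, and 147 in KYSE-890, where 95 others were above background. Its rank was thus nearest the top in KYSE-960, whereas its intensity was highest in KYSE-520. Such ranks place probes by brightness, which depends on each probe's own binding, and do not rank microRNAs by abundance. miR-210 supplied 0.0959% of the summed intensity in KYSE-520 and 0.0722% in KYSE-450, with 0.0841% in KYSE-960 and 0.0553% in KYSE-890. These sums take in all 856 features, those not above background included, and the KYSE-890 value of miR-210 was within background. The brightest feature alone gave 65471.5 of 180682 units in KYSE-960 and 57263.5 of 349156 in KYSE-520. The shares are therefore no measure of level between lines.

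**Figure D2:**
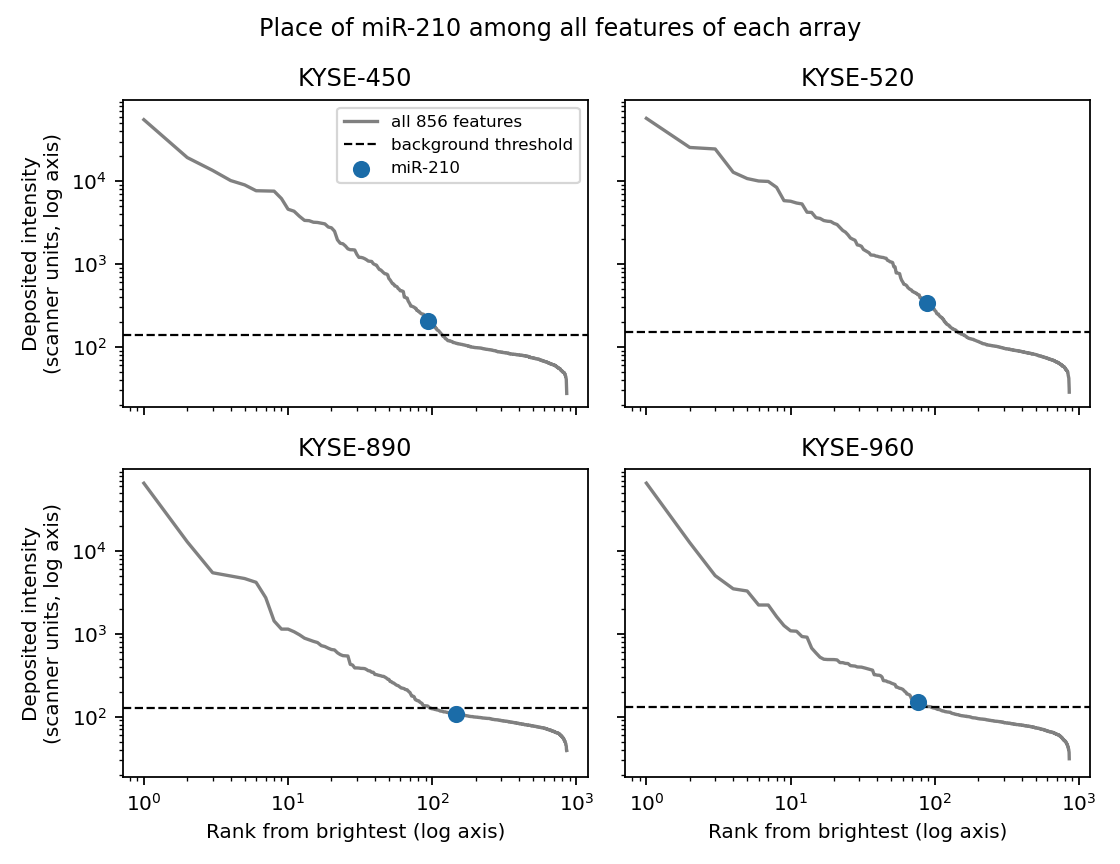
Deposited intensity of all 856 features against their rank from the brightest, both on log axes, with 1 panel per line; the dashed line is the background threshold and the point is miR-210. The point lies on the shoulder above the background plateau in KYSE-520, KYSE-450 and KYSE-960 (ranks 89, 94 and 76) and on the plateau in KYSE-890 (rank 147).

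Scaling between arrays changed which line was highest for miR-210. The arrays differed in the brightness of their signal, with medians over each array's features above background of 454 in KYSE-520 and 497 in KYSE-450, with 262 in KYSE-960 and 292.5 in KYSE-890. Quantile normalization, which makes the distributions of all arrays equal, left miR-210 at 209 in KYSE-520 and 193 in KYSE-450, with 259 in KYSE-960 and 117 in KYSE-890. It thereby moved miR-210 by -0.68 log2 in KYSE-520 and by 0.77 in KYSE-960, and by -0.10 in KYSE-450 and by 0.13 in KYSE-890. The order from the highest was KYSE-520, KYSE-450, KYSE-960 and KYSE-890 in the deposited values, and KYSE-960, KYSE-520, KYSE-450 and KYSE-890 after normalization.

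Among the 3 lines with miR-210 above background, neighbours in this order were under 2-fold apart under both scalings. In the deposited values KYSE-520 was 1.63-fold above KYSE-450 and KYSE-450 was 1.36-fold above KYSE-960. After normalization KYSE-960 was 1.24-fold above KYSE-520 and KYSE-520 was 1.08-fold above KYSE-450. The step down to KYSE-890 has only a lower bound, at least 1.17-fold from KYSE-960 in the deposited values and at least 1.02-fold from KYSE-450 after normalization. No spread between replicates is known against which these steps could be read.

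Of the 6 pairs of lines, those with a difference of 2-fold or more all included KYSE-520 in the deposited values. KYSE-520 was 2.20-fold above KYSE-960 for miR-210, with 335 and 152 intensity units. Of 713 features analysed, 95 (13.3%) were likewise at least 2-fold higher in KYSE-520 than in KYSE-960, a common difference between these arrays. After normalization 43 features (6.03%) were so, and miR-210 was instead 1.24-fold higher in KYSE-960 than in KYSE-520. The 86 features above background in both lines had then also moved towards KYSE-960. Their median log2 difference, KYSE-520 over KYSE-960, was -0.70, against -0.31 for miR-210.

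KYSE-520 was 3.15-fold above KYSE-890 in the deposited values, at 335 and 106.5 units. Since miR-210 was not above background in KYSE-890, the difference is better given as at least 2.59-fold, against the dimmest feature above background on that array (129.5 units). A lead of KYSE-520 over KYSE-890 of 2-fold or more was seen in 89 of 713 features (12.5%) in the deposited values and in 46 (6.45%) after normalization. The normalized difference of miR-210 was 1.78-fold, or at least 1.10-fold against that same feature.

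KYSE-450 was 1.93-fold above KYSE-890, with 206 and 106.5 units, or at least 1.59-fold. After normalization these became 1.65-fold and at least 1.02-fold. KYSE-960 was 1.43-fold above KYSE-890, with 152 and 106.5 units, or at least 1.17-fold. After normalization this pair alone reached 2-fold for miR-210, at 2.22-fold and at least 1.37-fold, so the bound lay under 2-fold. Features at least 2-fold higher in KYSE-960 than in KYSE-890 numbered 22 of 713 (3.09%) after normalization and 3 (0.421%) in the deposited values.

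In the 3 pairs of lines where miR-210 was above background in both, it differed in the same direction as the median feature in the deposited values. KYSE-520 was 1.63-fold above KYSE-450 for miR-210, against a median of 1.38-fold over the 111 features above background in both. Of the 110 others, 28 were further towards KYSE-520 than miR-210 was and 82 less far. KYSE-520 was 2.20-fold above KYSE-960 for miR-210 and 2.03-fold for the median of 86 features, with 39 of the other 85 further towards KYSE-520. KYSE-450 was 1.36-fold above KYSE-960 for miR-210 and 1.82-fold for the median of 85 features, with 52 of the other 84 further towards KYSE-450. After normalization, KYSE-450 over KYSE-960 was -0.43 log2 for miR-210 and -0.46 for the median of the same 85 features. KYSE-450 over KYSE-520 was then -0.11 log2 for miR-210 and 0 for the median. In all 3 pairs there were other features further along on each side of miR-210. What sets the brightness of a whole array was not tested.

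**Figure D3:**
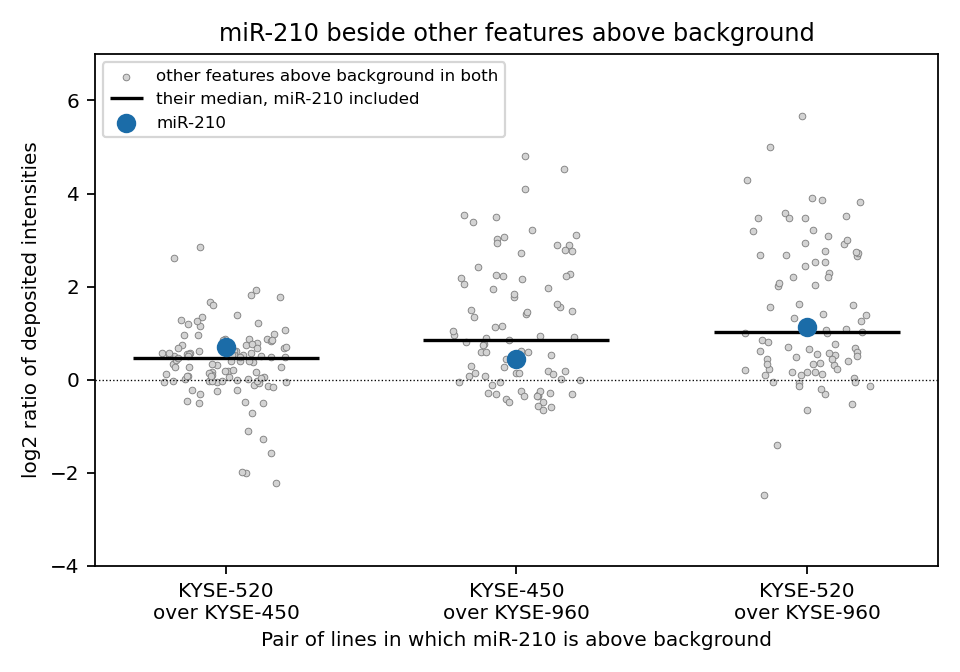
log2 ratio of deposited intensities for the 3 pairs of lines in which miR-210 was above background in both; grey points are other features above background in both lines (110, 84 and 85 from left to right), bars their medians with miR-210 included, and blue points miR-210. miR-210 lies near the median in KYSE-520 over KYSE-960 (2.20-fold against 2.03-fold) and within the cloud of the other features in each pair.

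The order of the lines was compared across 5 treatments of the arrays: quantile normalization, no scaling, equal medians, equal 75th percentiles and subtraction of each array's median. The other settings also use quantile normalization, after which the order of the lines is fixed by the ranks within the arrays. KYSE-520 was above KYSE-450 in all 5, by between 1.08-fold and 1.96-fold. KYSE-890 was lowest in 4, and the exception set the 75th percentiles of 184 shared features equal, which multiplied every value of KYSE-890 by 1.68 and of KYSE-520 by 0.476, background included. KYSE-520 was the highest line in 3 of the 5 and KYSE-960 in 2, so which line had the most miR-210 was not settled. Subtracting each array's median from the deposited values widened the distances, to 1.96-fold for KYSE-520 over KYSE-450 and 3.35-fold for KYSE-520 over KYSE-960. For KYSE-520 over KYSE-890 it gave 9.60-fold, a ratio to a remainder of 26.0 units that was itself within background.

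**Figure D4:**
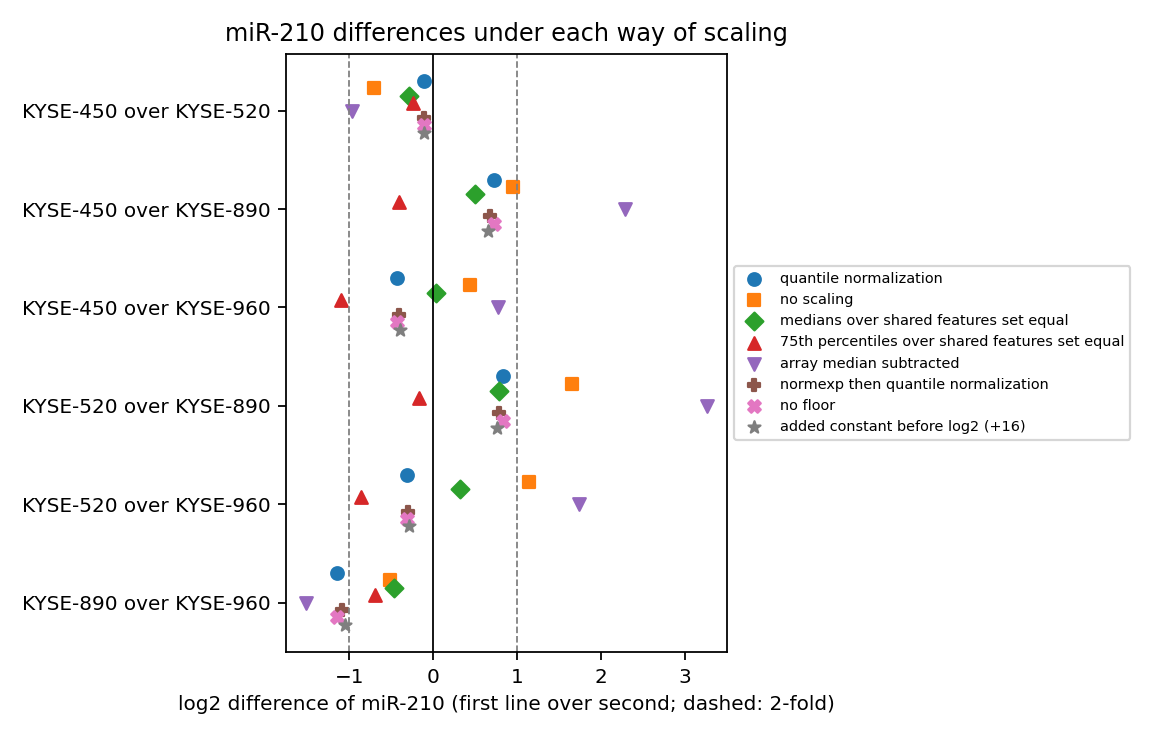
log2 difference of miR-210 for each of the 6 pairs of lines, first line over second, with a symbol for each of 8 ways of scaling or correcting the arrays; dashed lines mark 2-fold. The symbols for KYSE-450 over KYSE-520 all lie below 0, and those for KYSE-450 over KYSE-960 and KYSE-520 over KYSE-960 fall on both sides of 0.

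Of 163 features above background on at least 1 array, 7, miR-210 included, were so in KYSE-520, KYSE-450 and KYSE-960 and not in KYSE-890. Among these 7, the same deposited order of the lines as for miR-210 was found in 4, miR-210 included. The last place of KYSE-890 in that order follows from how the 7 were picked. Of all 163 features, KYSE-520 was highest in 100 and KYSE-890 lowest in 49 in the deposited values. The shared order is thus no sign of a particular likeness to miR-210. Closest to miR-210 in this small set was MIMAT0000443, whose deposited intensity was 386.5 in KYSE-520 and 160.5 in KYSE-450, with 131 in KYSE-960 and 75.5 in KYSE-890. Its deposited order of the lines was that of miR-210.

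The features most like miR-210 were also sought among the 75 above background on all 4 arrays, by the distance between log2 profiles centred over the 4 lines. The smallest distance after normalization was 0.39 log2, for MIMAT0000245, whose normalized intensity was 770.5 in KYSE-520 and 501 in KYSE-450, with 730.2 in KYSE-960 and 324 in KYSE-890. MIMAT0000104 followed at 0.57 log2, with normalized intensities of 1438, 887, 1220.2 and 810 in the same lines. Both, like miR-210, were lowest in KYSE-890, and both were highest in KYSE-520, whereas normalized miR-210 was highest in KYSE-960. Next came MIMAT0000093 at 0.64 log2, with 587, 775, 1062 and 288.5 in the same lines. It was highest in KYSE-960 and lowest in KYSE-890, as miR-210 was. At rank 4, at 0.84 log2, stood MIMAT0006766, whose normalized intensity was 60820.9 on all 4 arrays. This profile, flat by construction, was thus nearer to miR-210 than most of the 75. With the deposited values the nearest were MIMAT0004973 at 0.47 log2 and MIMAT0000244 at 0.48 log2, and only 1 of the 6 nearest features was among the 6 nearest after normalization. Likeness over 4 arrays is a description, and the KYSE-890 value of miR-210 that enters it was within background. These features are given by accession, since the table and the reference tables do not pair accessions with names.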

How the data were processed

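The authors deposited 1 intensity per feature and array, with 1 array for each of 4 lines. Per the labels' protocols, labelled RNA was hybridized for 16 h at 32 °C and the chip was scanned on a ProScanArray. How background, replicate spots and array scaling were handled is not given in the sources used here. Every deposited value was a multiple of 0.5 and none was 0 or below, which does not settle whether background was left in. If it was, ratios of dim features such as miR-210 are drawn towards 1.

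Quantile normalization (limma 3.58.1, R 4.3.3) was applied to all 4 arrays together, and values were raised to the array median where lower and taken to log2. Features below the median on all 4 arrays (143) were left out, and 713 remained. The dim-side SD was the array median minus its 16th percentile. A difference counted at 2-fold or more. The number of arrays limits precision, and no test was possible. The counting was tested on simulated data. The simulated arrays had no difference in brightness between whole arrays, so that test cannot speak to the choice of scaling. Alternatives were other scalings, a median subtraction, normexp with an offset of 50, no floor, 16 units added before log2, and each line left out in turn.

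The member, the lists and the rules were chosen with earlier results of these data known. miR-210 and the nearest features by log2 profile are named by rule. MIMAT0000443, from the set with the same background calls, was chosen after its values were seen. Lists of hypoxia-linked, reference and cell-type microRNAs were written by name, could not be matched to accessions and were not analysed here, so the labelled squamous cell type was not checked against markers. Sequences are from RefSeq tables on GRCh38.p14.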

Additional observations from a re-analysis of the deposited data

How the results depend on the processing

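For the 6 pairs of lines, 24 alternative values were free to change the order of the lines. Of these, 9 kept the direction and the side of 2-fold of the quantile-normalized difference. Another 8 turned round, some of them also past 2-fold, and 7 crossed 2-fold in the same direction. Another 30 also use quantile normalization, where ranks fix the direction (without a floor, the value too), and 29 kept their side. Values here are log2 differences of miR-210, the first line over the second. With no scaling, KYSE-450 over KYSE-960 turned to 0.44 and KYSE-520 over KYSE-960 to 1.14, KYSE-520 over KYSE-890 passed 2-fold at 1.65, and KYSE-890 over KYSE-960 fell short of it at -0.51. With the medians over shared features set equal, KYSE-450 over KYSE-960 turned to 0.032 and KYSE-520 over KYSE-960 to 0.32, and KYSE-890 over KYSE-960 was -0.46. With the 75th percentiles set equal, KYSE-450 over KYSE-890 turned to -0.40 and KYSE-520 over KYSE-890 to -0.17, KYSE-450 over KYSE-960 passed 2-fold at -1.10, and KYSE-890 over KYSE-960 was -0.70. With the array median subtracted, KYSE-450 over KYSE-960 turned to 0.77 and KYSE-520 over KYSE-960 to 1.74, while KYSE-450 over KYSE-890 reached 2.29 and KYSE-520 over KYSE-890 3.26. Setting the medians or 75th percentiles equal moved the median feature by between -1.07 and 0.93 log2. The cause of the changes was not tested. Leaving out 1 other line before normalization gave -1.05 to -0.93 for KYSE-890 over KYSE-960, under 2-fold without KYSE-520. The search for like features, with the largest absolute difference as measure, returned 4 of the same 6.

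No paired analysis was possible because a single array was made per line. The comparison within each array to reference microRNAs was not run, since the accessions are unnamed. The set with equal background calls and the place of miR-210 among features above background were alternatives chosen after seeing the data. Dim signal limits these values: deposited miR-210 was at most 3.92 times the array median.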
